A study of Mus musculus with 11 samples.

Results

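Chromatin accessibility was followed at 9 genes of caveolae and of the related EHD membrane proteins: Cavin1, Cavin2, Cavin3, Cav1, Cav2, Ehd1, Ehd2, Ehd3 and Ehd4. Their peaks are all those that the authors' annotation assigned to one of these genes, whatever their change, which gave 50 of 94410 ATAC-seq peaks. The genes themselves were picked from earlier results on these data, in which log2 changes at Cavin2 and Ehd3 were already known. The study profiled open chromatin of haematopoietic stem cells (HSCs) that had been sorted from the bone marrow of mice at steady state. All groups carried the genotype Gfplc3/Gfplc3, a GFP-LC3 reporter whose fluorescence falls as autophagy breaks it down. There were 3 libraries of old HSCs with low GFP (AThi, autophagy-high), 3 of old HSCs with high GFP (ATlo, autophagy-low) and 5 of young HSCs that were not split by GFP. The old AThi and ATlo libraries are paired biological replicates by design, made with the young ones over 2 days. The labels do not tie a library to a day, so the day could not be checked, and they do not state ages in numbers or how many mice a library holds. The p-values reflect only how these libraries vary. Old groups differ from the young one both in age and in the split by GFP, and these cannot be told apart in either comparison with young HSCs.

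Caveolae are small flask-shaped pits of the plasma membrane. Caveolins, which are hairpin-shaped membrane proteins, build them together with cavins, which form a coat on the cytoplasmic side. EHD proteins are ATPases that assemble on curved membranes: EHD2 sits at the neck of caveolae and holds them at the surface, while EHD1, EHD3 and EHD4 act mainly in the recycling and transport of endosomes. Blood stem cells are not known for abundant caveolae, but Cavin2 (formerly Sdpr) and Ehd3 recur in published lists of transcripts that are higher in old mouse HSCs.

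The tables hold no value per library, so each result is given as a level per group and a fold change. The level per group was derived from the authors' mean normalised count of a peak and their fold changes, and is called the derived level. A peak was called where the authors' adjusted p was under 0.05 over all peaks. The calls below are a description and not independent evidence, because of how the genes were picked. The comparisons with young HSCs share the 5 young libraries. In bulk libraries a change in the share of cells of one kind and a change within each cell cannot be told apart.

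Against young HSCs, old AThi HSCs had 13 of the 50 peaks called higher and 2 called lower. Old ATlo HSCs had 11 called higher and 0 called lower. Cavin2 and Ehd3 held 11 of the 13 higher calls in old AThi HSCs and 10 of the 11 in old ATlo HSCs, on 15 of the 50 peaks. Cav1, Cav2 and Ehd2 had no called peak in either comparison as deposited. Over the whole of the authors' deposited tables, the share called higher was 7.42% in old AThi HSCs and 6.75% in old ATlo HSCs, and the share called lower was 2.69% and 2.49%. With the median of the strongest promoters (the top 10% by mean level) set to 0, the shares called higher became 13.1% and 16.5% and those called lower 0.879% and 0.327%, and the peaks of the 9 genes split into 16 higher and 1 lower in old AThi HSCs and 15 higher and 0 lower in old ATlo HSCs. At an unadjusted p under 0.05 the peaks of the 9 genes numbered 18 of 50 in old AThi HSCs and 17 of 50 in old ATlo HSCs, while over all peaks the shares at that p were 22.4% and 21.7%. The median log2 change of the 50 peaks in the authors' deposited tables was 0.10 in old AThi HSCs, with -0.04 over all peaks, and 0.13 in old ATlo HSCs, with -0.03 over all peaks. The Cavin2 and Ehd3 peaks had medians of 1.27 and 1.00, and the 35 peaks of the other 7 genes had medians of -0.03 and -0.06, in old AThi and old ATlo HSCs in that order.

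**Figure D1:**
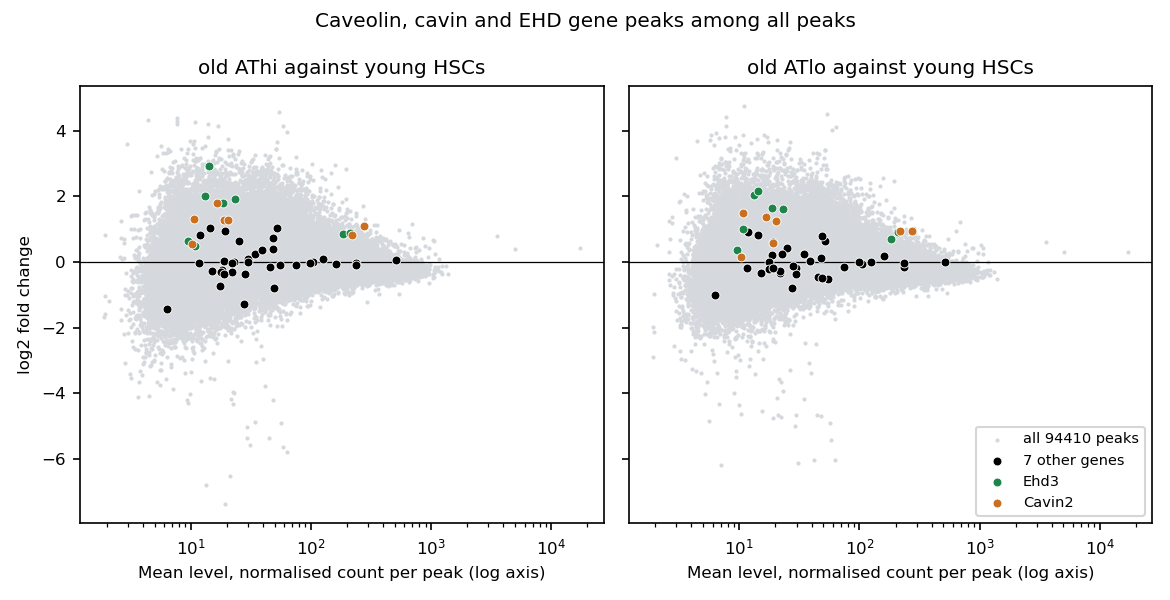
Log2 fold change in accessibility (y axis) against the mean normalised count of the peak (x axis, log scale) for all 94410 peaks in grey, in old AThi HSCs against young HSCs (left) and old ATlo HSCs against young HSCs (right). The Cavin2 and Ehd3 peaks (orange and green) all lie above 0 in both panels, while the 35 peaks of the other 7 genes (black) lie on both sides of it.

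Among the cavins, 7 of 16 peaks were called higher in old AThi HSCs and 6 of 16 in old ATlo HSCs, 5 in each case at Cavin2. Cavin2 binds phosphatidylserine and helps to shape caveolae. Its promoter peak on chromosome 1 (51327814 to 51328971; positions here follow the tables and were taken as mm39) covered bases -471 to 686 relative to the start site. Its derived level was 375 normalised counts in old AThi HSCs and 338 in old ATlo HSCs, against 176 in young HSCs. Both old groups stood above the young group by more than the fitted error of either. In the authors' deposited tables the promoter's log2 change was 1.09 (SE 0.17, adjusted p = 2.22e-08) in old AThi HSCs and 0.94 (SE 0.17, adjusted p = 3.53e-06) in old ATlo HSCs.

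A second strong Cavin2 peak lay in exon 2, the last exon, 10.7 kb downstream of the start (51338944 to 51340028). Its derived level was 264 in old AThi HSCs and 288 in old ATlo HSCs, against 150.2 in young HSCs. The authors' deposited tables gave log2 changes of 0.82 (SE 0.17, adjusted p = 8.99e-05) and 0.94 (SE 0.17, adjusted p = 2.97e-06). As fold changes, the promoter and the last exon were 2.13-fold and 1.76-fold higher in old AThi HSCs and 1.92-fold higher each in old ATlo HSCs.

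The other 5 Cavin2 peaks lay upstream and were weak, with mean levels of 10.3 to 20.2. A pair of them sat in intron 2 of 9330175M20Rik, 22.7 and 23.6 kb upstream of Cavin2. The nearer one had a derived level of 27.7 in old AThi HSCs and 27.4 in old ATlo HSCs, against 11.5 in young HSCs. Its log2 changes in the authors' deposited tables were 1.27 (SE 0.42, adjusted p = 0.0310) and 1.25 (SE 0.41, adjusted p = 0.0317). The one next to it had a derived level of 30.4 in old AThi HSCs and 18.6 in old ATlo HSCs, against 12.4 in young HSCs. The authors' deposited tables called it higher in old AThi HSCs (log2 1.29, SE 0.41, adjusted p = 0.0196) and not in old ATlo HSCs (0.59, SE 0.42, adjusted p = 0.444).

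Farther out, a peak 43.3 kb upstream in intron 4 of 9330175M20Rik had derived levels of 14.0 and 15.8 in old AThi and old ATlo HSCs, against 5.60 in young HSCs. The authors' deposited tables gave 1.32 (SE 0.53, adjusted p = 0.0937) in old AThi HSCs and 1.49 (SE 0.51, adjusted p = 0.0390) in old ATlo HSCs, which passed. It was the peak of the 50 just outside the threshold in old AThi HSCs, where the one just inside had 0.0310. In old ATlo HSCs it was the one just inside, and the one just outside, at Cavin1, had 0.0852. The most distant peak, 152 kb upstream in intron 7 of Tmeff2, was assigned to Cavin2 only by distance. It had derived levels of 27.5 and 20.5 in old AThi and old ATlo HSCs, against 7.88 in young HSCs. The authors' deposited tables gave log2 values of 1.80 (SE 0.41, adjusted p = 3.08e-04) in old AThi HSCs and 1.38 (SE 0.41, adjusted p = 0.0139) in old ATlo HSCs. An intergenic peak 97.0 kb upstream did not pass in either (0.55, SE 0.56, and 0.14, SE 0.57, in the authors' deposited tables).

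Cavin1, without which caveolae do not form, had 1 called peak among 4, which was not at its promoter. Its promoter peak on chromosome 11 (100859762 to 100861823) had a derived level of 240.3 in old AThi HSCs and 218 in old ATlo HSCs, against 243 in young HSCs. The promoter passed in neither comparison. A peak in the 3′ UTR, 7.62 kb downstream of the start, had a derived level of 74.7 in old AThi HSCs and 56.1 in old ATlo HSCs, against 36.3 in young HSCs. The authors' deposited tables gave a log2 rise of 1.04 (SE 0.24, adjusted p = 5.00e-04) in old AThi HSCs and a value of 0.63 (SE 0.24, adjusted p = 0.0852) in old ATlo HSCs. The next 3′ UTR peak, 13.1 kb downstream, did not pass (0.64, SE 0.34, and 0.43, SE 0.34, in the authors' deposited tables).

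Cavin3, a coat protein that binds protein kinase C delta, had 1 called peak among 5. It lay 16.5 kb upstream of the gene on chromosome 7 (105147903 to 105148778). There the derived level was 58.5 in old AThi HSCs and 60.9 in old ATlo HSCs, against 35.0 in young HSCs. The authors' deposited tables gave log2 changes of 0.74 (SE 0.24, adjusted p = 0.0271) and 0.80 (SE 0.23, adjusted p = 0.0119). The Cavin3 promoter had derived levels of 132 and 123 in old AThi and old ATlo HSCs, against 124 in young HSCs, and did not pass. The other 3 Cavin3 peaks had log2 changes of -0.25 to 0.10 in old AThi HSCs and -0.20 to 0.20 in old ATlo HSCs in the authors' deposited tables.

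**Figure D2:**
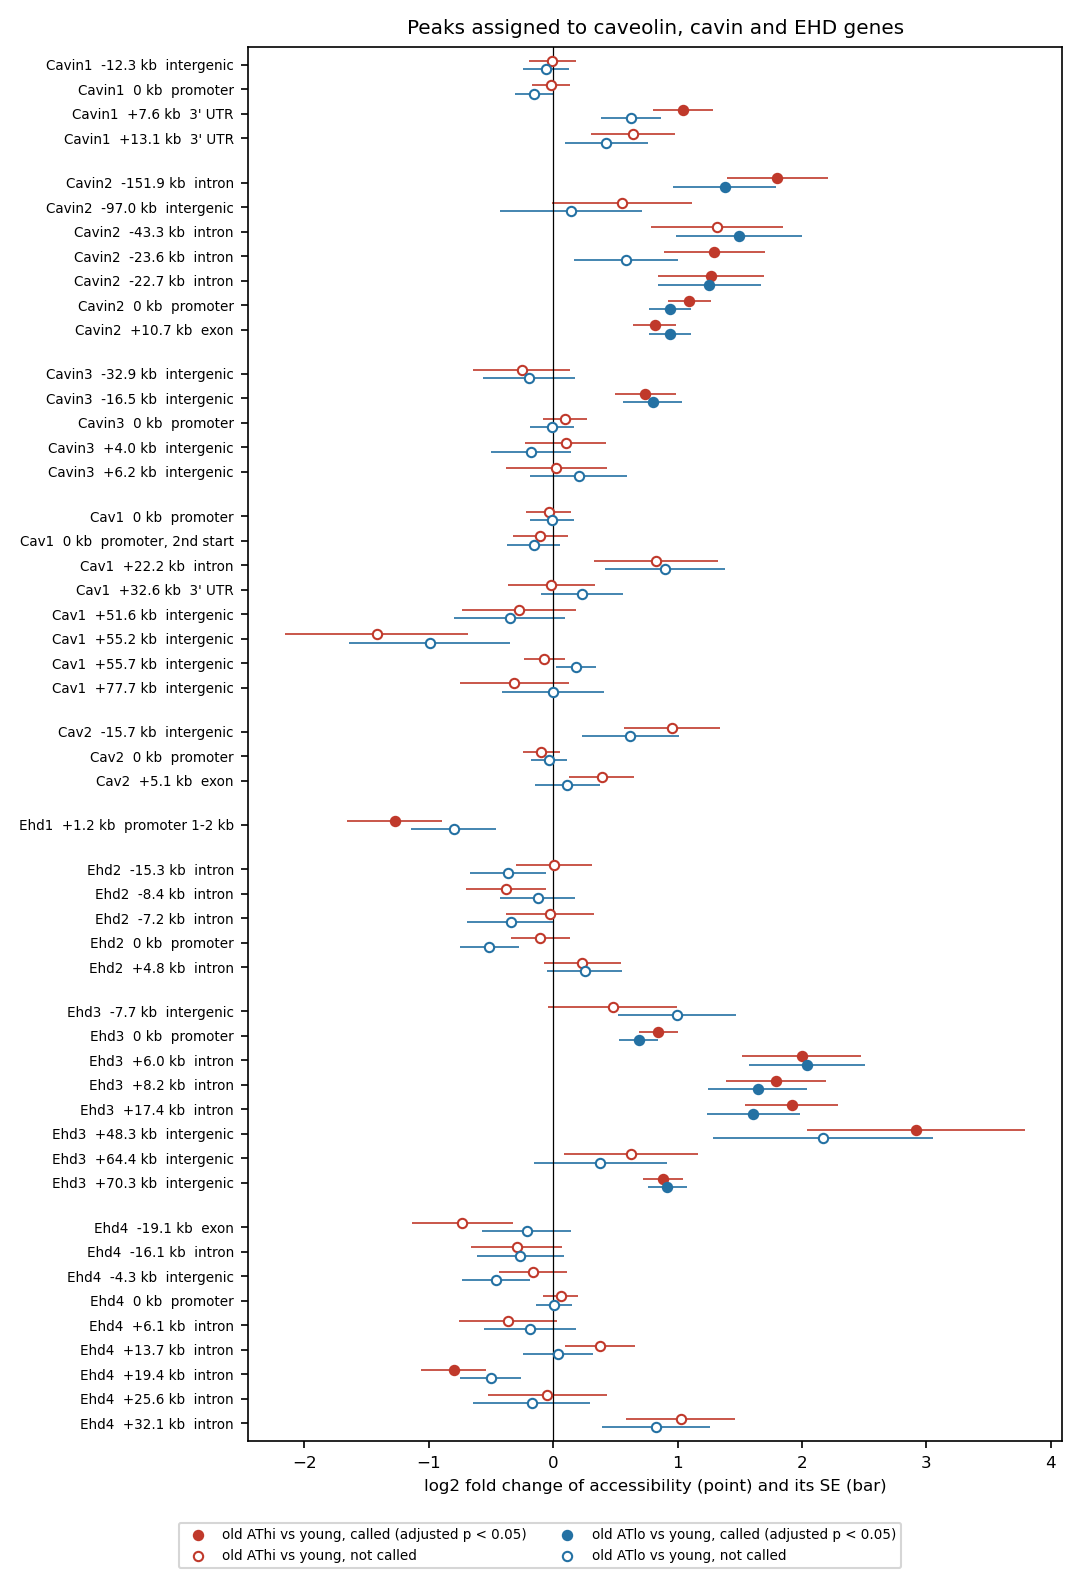
Log2 fold change (point) and its standard error (bar) on the x axis for each of the 50 peaks, listed by gene and by kb from the assigned start site, for old AThi HSCs (red) and old ATlo HSCs (blue) against young HSCs. Filled points had an adjusted p under 0.05. Filled points to the right of 0 gather at Cavin2 and Ehd3, and the 2 filled points to the left belong to Ehd1 and Ehd4.

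Sequences of the start regions are shown for a gene whose promoter was called and one whose promoter was not, in each of the cavin and EHD families. They come from RefSeq on GRCm38.p6, cover 250 bases before to 50 after the gene's start, and run 5′ to 3′ on the gene's strand. RefSeq windows matched 7 of the 9 genes. The windows are Cavin2 at chr1:51288876-51289175 (plus strand), Cavin1 at chr11:100970568-100970867 (minus strand), Ehd3 at chr17:73804591-73804890 (plus strand) and Ehd4 at chr2:120154526-120154825 (minus strand). Capitals mark a CCAAT box (CCAAT) or a GC box (GGGCGG) on either strand.
Cavin2: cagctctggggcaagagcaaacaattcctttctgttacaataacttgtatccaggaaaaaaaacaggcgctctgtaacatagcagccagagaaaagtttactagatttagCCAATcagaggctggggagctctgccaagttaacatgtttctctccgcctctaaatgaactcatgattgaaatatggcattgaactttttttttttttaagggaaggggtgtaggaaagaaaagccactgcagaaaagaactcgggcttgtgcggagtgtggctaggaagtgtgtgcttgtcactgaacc
Cavin1: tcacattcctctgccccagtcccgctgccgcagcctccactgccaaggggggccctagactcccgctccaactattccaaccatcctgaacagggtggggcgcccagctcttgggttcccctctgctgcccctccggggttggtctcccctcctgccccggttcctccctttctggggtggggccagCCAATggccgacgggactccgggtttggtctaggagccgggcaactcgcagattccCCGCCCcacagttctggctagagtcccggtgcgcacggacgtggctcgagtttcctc
Ehd3: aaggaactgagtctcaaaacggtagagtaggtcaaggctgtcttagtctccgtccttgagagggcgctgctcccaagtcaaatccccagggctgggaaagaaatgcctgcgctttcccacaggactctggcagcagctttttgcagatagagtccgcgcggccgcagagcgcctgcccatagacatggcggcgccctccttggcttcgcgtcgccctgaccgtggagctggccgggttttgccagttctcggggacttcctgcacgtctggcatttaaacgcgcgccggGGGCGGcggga
Ehd4: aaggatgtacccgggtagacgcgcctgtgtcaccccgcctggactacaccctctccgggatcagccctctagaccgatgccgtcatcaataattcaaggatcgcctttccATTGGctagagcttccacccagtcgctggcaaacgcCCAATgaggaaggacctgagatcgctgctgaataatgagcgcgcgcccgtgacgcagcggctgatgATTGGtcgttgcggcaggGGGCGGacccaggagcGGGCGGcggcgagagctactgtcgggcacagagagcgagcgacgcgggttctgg

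Among these windows the Cavin2 start stood out as poor in G and C. It had 43.3% G and C and 4 CpG dinucleotides, where the median of all 32851 RefSeq windows was 52.7% and 7. The Ehd3 window had 61.7% and 24 CpG, the Cavin1 window shown 66.7% or 67.0% for its neighbouring start with 17 or 18 CpG, and the Ehd4 window 62.7% and 29 CpG. Fewer CpG than Cavin2 were found in 31.4% of all windows, and fewer than Ehd3 in 80.0%. Cavin2 had 1 CCAAT box, its first base 140 bases before the start, and no GC box. Ehd3 had no CCAAT box and 1 GC box at base 40 after the start, while Ehd4 had 3 CCAAT boxes and 2 GC boxes. Of all windows, 37.4% held a CCAAT box and 35.7% a GC box. Both strands were also searched for 6 other motifs, none of which contains another. The GATA motif, spelled AGATAA, was present in 11.2% of all windows and in none of the 7 genes. The same held for the ETS motif, spelled CCGGAA, at 14.9% of all windows, and for the E-box, spelled CACGTG, at 7.15%. The PAR bZIP motif, searched as TTANGTAA, was also in none of the 7 genes and in 2.32% of all windows. The RUNX motif, spelled TGTGGT, was found at the downstream Cav1 start and in 16.8% of all windows. The AP-1 motif, searched as TGANTCA, was found at Cav2 and in 7.81% of all windows.

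Caveolins showed no called peak in the authors' deposited tables. Cav1, the main structural protein of caveolae outside muscle, had 8 peaks on chromosome 6. The promoter peak at its upstream start (17305956 to 17307358) had a derived level of 97.4 in old AThi HSCs and 98.9 in old ATlo HSCs, against 99.7 in young HSCs. At its downstream start the derived level was 73.0 and 70.2 in old AThi and old ATlo HSCs, against 78.3 in young HSCs. Neither promoter peak passed in either comparison. The strongest Cav1 peak lay 55.7 kb downstream of the start it was assigned to. Its derived levels were 149 and 178 in old AThi and old ATlo HSCs, against 156 in young HSCs. It was not called as deposited. With the median of the strongest promoters set to 0, it was called higher in old ATlo HSCs. The lack of a Cav1 call there thus rests on the scaling. The smallest p among Cav1 peaks in old AThi HSCs belonged to a weak peak 55.2 kb downstream, where the authors' deposited table gave -1.42 (SE 0.73, adjusted p = 0.229). The derived level of that peak was 3.38 in old AThi HSCs and 4.55 in old ATlo HSCs, against 9.05 in young HSCs.

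Cav2, the partner of caveolin-1, had 3 peaks. Its promoter (17280740 to 17282492) had derived levels of 226 and 236 in old AThi and old ATlo HSCs, against 241 in young HSCs. The authors' deposited tables gave log2 changes of -0.09 (SE 0.15) and -0.03 (SE 0.14) there. The 95% intervals of these log2 changes ran from -0.38 to 0.20 and from -0.32 to 0.25. For a weak peak 15.7 kb upstream, which did not pass, the authors' deposited tables gave 0.96 (SE 0.39, adjusted p = 0.0944) in old AThi HSCs and 0.62 (SE 0.39, adjusted p = 0.356) in old ATlo HSCs. With the median of the strongest promoters set to 0, this peak was called higher in old AThi HSCs (1.18), so the lack of a Cav2 call rests on the scaling.

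Of the 23 EHD gene peaks, 6 passed as higher in old AThi HSCs and 5 in old ATlo HSCs, all of them at Ehd3. Lower calls numbered 2 in old AThi HSCs and 0 in old ATlo HSCs. Ehd3, an endosomal EHD protein, had 8 peaks on chromosome 17, and all 8 had positive log2 changes in both comparisons. Its promoter (74111247 to 74112463) covered bases -589 to 627 relative to the start site. The derived level there was 240.1 in old AThi HSCs and 215 in old ATlo HSCs, against 134 in young HSCs. The authors' deposited tables gave log2 changes of 0.85 (SE 0.16, adjusted p = 5.60e-06) and 0.69 (SE 0.16, adjusted p = 5.20e-04).

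Inside Ehd3, 3 weak intronic peaks had larger fitted fold changes than the promoter. In intron 1, 6.01 kb downstream of the start, the derived level was 19.8 in old AThi HSCs and 20.3 in old ATlo HSCs, against 4.95 in young HSCs, or 3.99-fold and 4.11-fold higher. A neighbour in the same intron, 8.2 kb downstream, had 28.7 and 25.9 in old AThi and old ATlo HSCs, against 8.29 in young HSCs. In intron 3, 17.4 kb downstream, the derived level was 38.0 in old AThi HSCs and 30.6 in old ATlo HSCs, against 10.0 in young HSCs. Log2 changes at the 3 peaks in the authors' deposited tables lay between 1.79 (SE 0.40) and 2.00 (SE 0.48) in old AThi HSCs and between 1.61 (SE 0.37) and 2.04 (SE 0.46) in old ATlo HSCs. The largest adjusted p among them was 8.04e-04 in old AThi HSCs and 0.00117 in old ATlo HSCs. The difference between promoter and introns was not tested, since the tables give no covariance between peaks.

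Downstream of the Ehd3 gene lay a strong peak, 70.3 kb from the start (74182089 to 74183450), beyond the gene's end. Xdh is the next gene in RefSeq order. The strong peak had a derived level of 262 in old AThi HSCs and 268 in old ATlo HSCs, against 142 in young HSCs. The authors' deposited tables gave 0.88 (SE 0.16, adjusted p = 2.13e-06) and 0.92 (SE 0.16, adjusted p = 6.54e-07). The largest log2 change of the 50 peaks belonged to a weak one 48.3 kb downstream, for which the authors' deposited tables gave 2.92 (SE 0.87, adjusted p = 0.0129) in old AThi HSCs and 2.17 (SE 0.88, adjusted p = 0.103) in old ATlo HSCs. The deposited SEs give that peak a coefficient of variation between libraries, beyond counting noise, of 75.2%. This was the highest of the 50, with a median of 24.3% over all peaks. Its derived levels were 28.7 and 17.1 in old AThi and old ATlo HSCs, against 3.80 in young HSCs. The Ehd3 peaks 7.67 kb upstream and 64.4 kb downstream passed in neither comparison as deposited. Their derived levels were 10.9 and 11.95 in old AThi HSCs and 15.6 and 10.1 in old ATlo HSCs, against 7.85 and 7.74 in young HSCs.

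**Figure D3:**
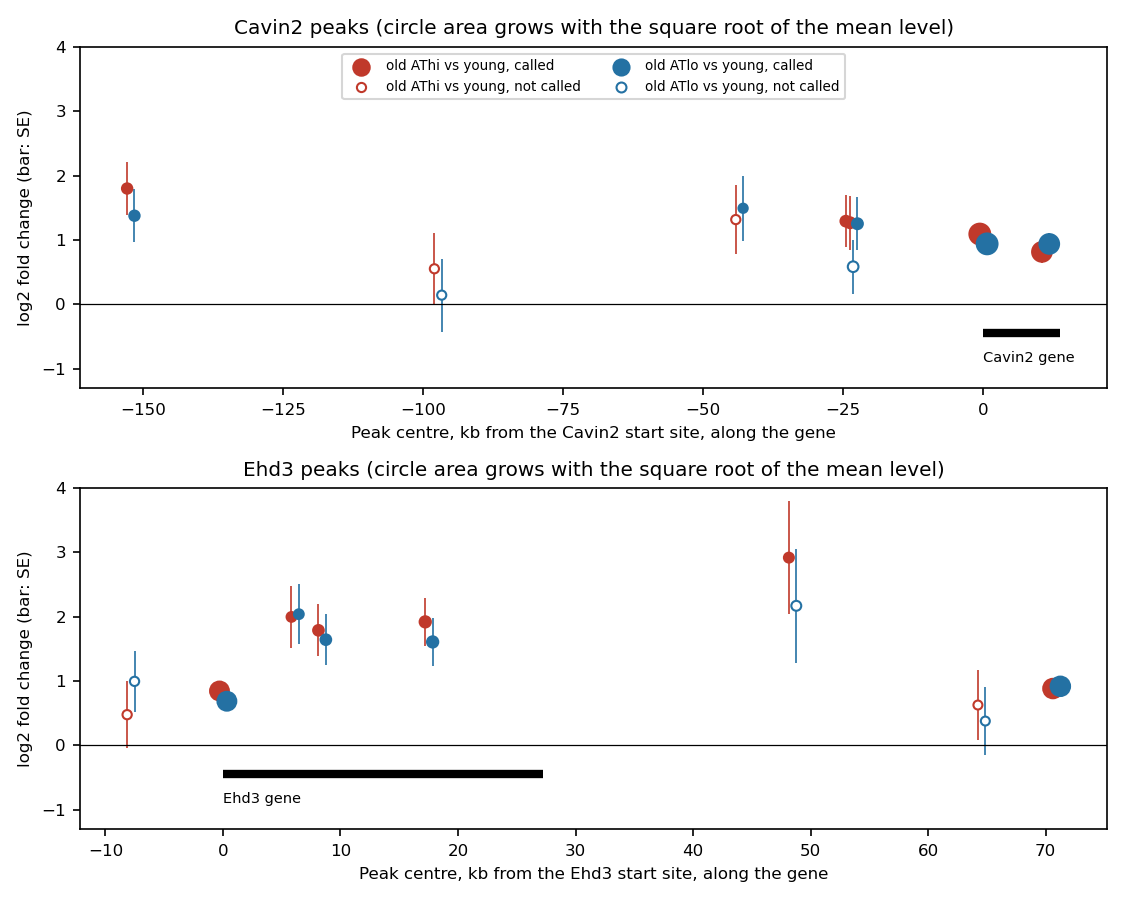
Log2 fold change (circle) and its standard error (bar) of each Cavin2 peak (top) and Ehd3 peak (bottom) against the distance of the peak's centre from the start site in kb, for old AThi HSCs (red) and old ATlo HSCs (blue) against young HSCs, drawn slightly apart. The black bar spans the gene and larger circles have a higher mean level. The strong peaks (largest circles) lie between 0.69 and 1.09, and the weak Ehd3 intronic peaks lie between 1.61 and 2.04.

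Ehd1 and Ehd4, which act in endosomal recycling, held the 2 peaks called lower in old AThi HSCs, and neither was called in old ATlo HSCs. The single peak assigned to Ehd1 lay 1.24 kb downstream of its start on chromosome 19 (6328166 to 6328494). It had a derived level of 15.7 in old AThi HSCs and 21.8 in old ATlo HSCs, against 37.9 in young HSCs. The authors' deposited tables gave -1.27 (SE 0.38, adjusted p = 0.0127) in old AThi HSCs, a fall that passed, and -0.80 (SE 0.34, adjusted p = 0.130) in old ATlo HSCs. In Ehd4, a peak in intron 2, 19.4 kb downstream of the start, had a derived level of 34.9 in old AThi HSCs and 42.9 in old ATlo HSCs, against 60.8 in young HSCs. The authors' deposited tables gave -0.80 (SE 0.26, adjusted p = 0.0288) and -0.50 (SE 0.24, adjusted p = 0.197). The direct comparison of old AThi with old ATlo HSCs passed at neither peak, where the authors' deposited table gave log2 values of -0.47 (SE 0.43) and -0.30 (SE 0.30).

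The Ehd4 promoter on chromosome 2 (119983959 to 119985418) was the strongest of the 50 peaks. Its derived level was 528 in old AThi HSCs and 509 in old ATlo HSCs, against 506 in young HSCs, with log2 changes of 0.06 (SE 0.14) and 0.01 (SE 0.14) in the authors' deposited tables. The other 7 Ehd4 peaks passed in neither comparison as deposited. Their log2 changes were -0.73 to 1.03 in old AThi HSCs and -0.46 to 0.83 in old ATlo HSCs in the authors' deposited tables. Ehd2, the EHD protein of the caveolar neck, had 5 peaks, 3 of them in introns of Bicra next door. Its promoter on chromosome 7 (15701146 to 15701640) had a derived level of 56.7 in old AThi HSCs and 42.7 in old ATlo HSCs, against 60.8 in young HSCs. The authors' deposited tables gave -0.10 (SE 0.23, adjusted p = 0.851) and -0.51 (SE 0.24, adjusted p = 0.171). Its other 4 peaks ranged from -0.38 to 0.23 and from -0.36 to 0.26 in the authors' deposited tables.

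**Figure D4:**
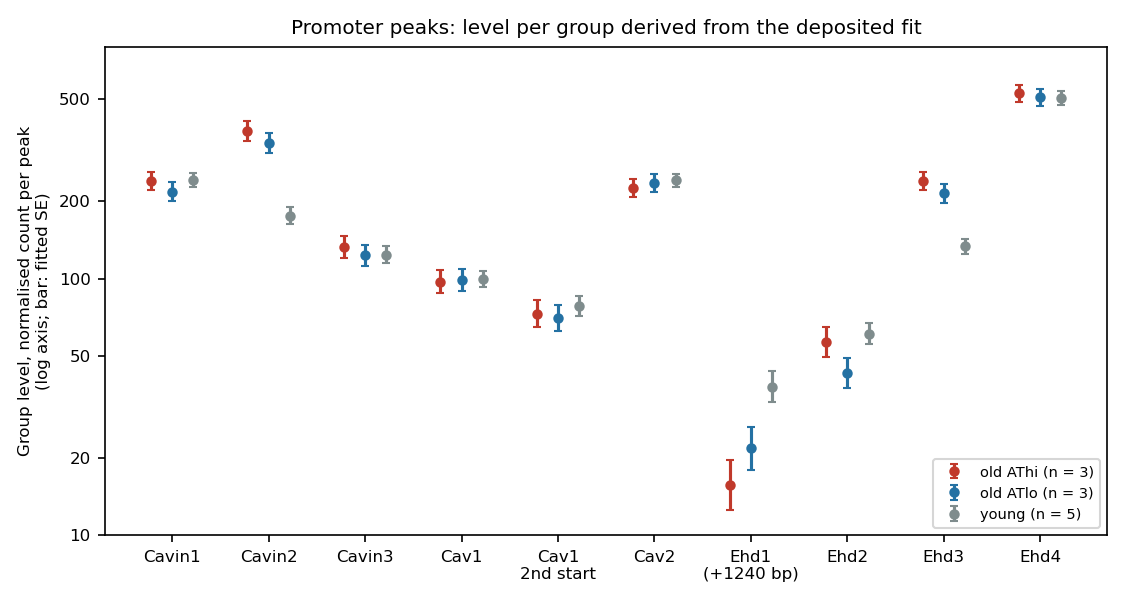
Derived level per group (y axis, normalised count per peak, log scale) of the 10 promoter peaks of the 9 genes, for old AThi HSCs (red, n = 3), old ATlo HSCs (blue, n = 3) and young HSCs (grey, n = 5). Bars are the standard error of the level that the deposited SEs imply, with a spread shared by the groups. Old groups stand above young at Cavin2 and Ehd3, and below it at the Ehd1 peak 1240 bp past the start, where old ATlo did not pass.

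Signs of the small changes at promoters rest on the scaling. The 2289 strongest promoters of the series had a median log2 change of -0.22 in old AThi HSCs and -0.30 in old ATlo HSCs. With that median set to 0, the Cav1 promoter stood at 0.18 and 0.29, the Cav2 promoter at 0.12 and 0.27 and the Cavin1 promoter at 0.20 and 0.15 in old AThi and old ATlo HSCs, and none of them passed. The intron 2 peak of Ehd4 no longer passed (-0.58). The Ehd1 peak (-1.06) and every called Cavin2 and Ehd3 peak kept direction and call under that scaling.

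Per kb of peak, promoter levels ranked Ehd4 first with 351 normalised counts per kb over all libraries, then Cavin2 with 237 and Ehd3 with 152. The Ehd4 and Cavin2 promoters stood above the next in rank by 48.2% and 56.0%, beyond the joint coefficient of variation between libraries of 19.7% and 19.9%. This coefficient is for single libraries and leaves out counting noise, while the ranked levels are means over all libraries. Below Ehd3 came the downstream Cav1 start (141), Cav2 (134), Cavin3 (116), Cavin1 (114) and Ehd2 (111), and from Ehd3 to Ehd2 no neighbours differed beyond their spread. The last were the Ehd1 peak (83.4) and the upstream Cav1 start (70.5), and the step of 32.6% between Ehd2 and Ehd1 was about as large as their joint spread. This order pools groups that differ. In old AThi HSCs the per-kb level was 324 at Cavin2, 197 at Ehd3 and 47.6 at Ehd1, and in old ATlo HSCs it was 292, 177 and 66.2 at these genes. In young HSCs it was 152 at Cavin2, 110 at Ehd3 and 115 at Ehd1, with the downstream Cav1 start at 148, Cav2 at 138 and Cavin3 at 114. By level alone the Ehd1 peak thus came above Cavin3 and Ehd3 in the young group. Its coefficient of variation between libraries was 27.4%, and these gaps lie within that spread. Their order in young HSCs is therefore not resolved.

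Between old AThi and old ATlo HSCs, none of the 50 peaks was called in the authors' deposited table, nor was any other peak (0% higher, 0% lower). At an unadjusted p under 0.05 there were 0 of the 50 peaks and 1683 of all peaks (1.78%). In the authors' deposited table the smallest unadjusted p of the 50 was 0.115, at the Cavin2 peak 23.6 kb upstream (log2 0.71, SE 0.45). At promoters the 95% intervals of the log2 difference between AThi and ATlo were -0.21 to 0.51 for Cavin2, -0.18 to 0.50 for Ehd3, -0.19 to 0.47 for Cavin1 and -0.25 to 0.36 for Ehd4. They were -0.42 to 0.38 for the upstream Cav1 start, -0.43 to 0.54 for the downstream one, -0.38 to 0.26 for Cav2, -0.29 to 0.49 for Cavin3 and -0.13 to 0.94 for Ehd2. A 2-fold difference between the old fractions lies outside each of these 9 intervals. The deposited SEs look like those of a fit without a pair term, so these intervals and p-values do not use the pairing of AThi with ATlo. It lies inside that of the Ehd1 peak, the remaining promoter peak, which ran from -1.32 to 0.37. At the weak Ehd3 peak 48.3 kb downstream the interval ran from -1.03 to 2.53.

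A list of 40 partners of caveolae and EHD proteins was described in the same way. Of these, 38 genes had a peak, 268 peaks in all. In old AThi HSCs 27 of the 268 peaks were called higher (10.1%) and 14 lower (5.22%), at 14 and 13 genes. In old ATlo HSCs 25 were higher (9.33%) and 8 lower (2.99%), at 16 and 5 genes. Their median log2 change was -0.05 in both comparisons. Against the 7.42% and 2.69% of all peaks in old AThi HSCs, and 6.75% and 2.49% in old ATlo HSCs, the list is not set apart by a test here.

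The partners with the smallest p were Ror1, Kdr, Tgfbr1, Abl1, Micall2, Arap2, Flna and Filip1l. A distal peak of Ror1, a receptor known in human lung cancer cells to help to keep caveolae, had a derived level of 93.3 in old AThi HSCs and 66.3 in old ATlo HSCs, against 19.4 in young HSCs. The authors' deposited tables gave log2 changes of 2.27 (SE 0.25) and 1.77 (SE 0.25) for it, while another distal Ror1 peak fell by 0.61 (SE 0.20) and by 0.62 (SE 0.20). The promoter of Abl1, a kinase that phosphorylates caveolin-1, had 347 in old AThi HSCs and 297 in old ATlo HSCs, against 184 in young HSCs. The promoter of Flna, an actin crosslinker that binds caveolin-1, had 178 and 172 in old AThi and old ATlo HSCs, against 90.9 in young HSCs. Log2 changes in the authors' deposited tables were 0.92 (SE 0.16) and 0.69 (SE 0.16) for Abl1, and 0.97 (SE 0.19) and 0.92 (SE 0.19) for Flna. For Kdr, the VEGF receptor 2, a distal peak had 1.69 (SE 0.29) and 2.05 (SE 0.27) in the authors' deposited tables, and intron 1 of Tgfbr1, a TGF-β receptor, had 2.40 (SE 0.38) and 1.85 (SE 0.38).

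Called peaks of one gene did not all go one way. A stronger distal Kdr peak was lower in both comparisons, with derived levels of 157 and 159 in old AThi and old ATlo HSCs, against 217 in young HSCs (log2 -0.47, SE 0.16, and -0.46, SE 0.16, in the authors' deposited tables). Kdr had 4 of 25 peaks called higher and 1 lower in each comparison. Of 13 Tgfbr1 peaks, 4 were higher and 1 lower in old AThi HSCs, and 3 higher and 0 lower in old ATlo HSCs. The lower one was a distal peak (-0.85, SE 0.24, in old AThi HSCs in the authors' deposited tables). Ror1 had 2 higher and 1 lower in old AThi HSCs and 2 higher and 2 lower in old ATlo HSCs.

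Among the other 3 named partners 1 peak each with the smallest p was called higher in both comparisons. The authors' deposited tables gave 0.86 (SE 0.24) and 1.27 (SE 0.23) for a promoter flank peak of Micall2, 1.52 (SE 0.28) and 1.29 (SE 0.27) for intron 6 of Arap2, and 1.17 (SE 0.32) and 1.56 (SE 0.30) for intron 1 of Filip1l. Another promoter flank peak of Micall2 and an intronic peak assigned to Filip1l were called lower in old AThi HSCs, at -0.50 (SE 0.16, adjusted p = 0.0173) and -1.08 (SE 0.31, adjusted p = 0.00918) in the authors' deposited tables. Cavin4, the cavin of muscle, had a distal peak for which the authors' deposited tables gave -1.06 (SE 0.34, adjusted p = 0.0264) in old AThi HSCs and -0.19 (SE 0.29, adjusted p = 0.770) in old ATlo HSCs. Cav3, the caveolin of muscle, had 2 peaks and no call. Pacsin2, a membrane-bending protein at caveolae, had 1 distal peak that fell in old AThi HSCs (-1.35 in the authors' deposited table, SE 0.42). Dnm2, the dynamin of most tissues, rose at a peak in exon 2 in old ATlo HSCs (0.67 in the authors' deposited table, SE 0.21). Cavin4, Pacsin2 and Dnm2 were picked out after their values were seen.

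Promoter peaks most like that of Cavin2 were sought among 7351 promoter peaks of other named genes within a 2-fold range of its mean level, by the Euclidean distance between the log2 changes against young HSCs in both old groups. The nearest 5 belonged to Cldn3, Sdc4, Nr2f6, Iqcn and Sorcs1, at distances of 0.03 to 0.05. For the strong downstream Ehd3 peak, the nearest 5 among 1781 intergenic peaks belonged to Mettl25, Podxl, Lhfpl4, Tent5c and Csnk1e, at distances of 0.07 to 0.09. These distances are below the SEs of the changes (at least 0.13), and they rest on 3 groups that share the young libraries.

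The labelled cell type was checked at promoters. All 10 HSC markers had a promoter peak (mean level 28.6 to 414), as had 7 of 10 megakaryocyte genes (27.7 to 283) and 3 of 5 erythroid genes (74.7 to 229). The HSC promoters summed to a derived level of 1709 in old AThi HSCs and 1590 in old ATlo HSCs, against 1865 in young HSCs. Fgd5 was called higher in both comparisons, and Kit and Mecom were called lower in old ATlo HSCs (adjusted p = 0.0104 and 0.00642 in the authors' deposited table). Promoter peaks were listed for 1 of 5 T cell, 2 of 5 B cell and 1 of 6 myeloid markers, and none was listed within 1 kb of the start at Cd3e, Cd79a, Pax5, Elane and Mpo among others. Caveolae are abundant in endothelial and stromal cells, and their markers were therefore summed beside the caveolar genes. The endothelial list had a promoter peak at 8 of 10 genes, not at Cdh5 and Stab2, and their derived levels summed to 623 in old AThi HSCs and 567 in old ATlo HSCs, against 509 in young HSCs. In the authors' deposited tables Cldn5 and Vwf rose in old AThi HSCs, by log2 values of 0.83 (SE 0.20) and 0.78 (SE 0.27), and 0 of 8 promoters passed in old ATlo HSCs. Promoters were only part of this list, which had 72 peaks at any position. Of these, 13 rose and 1 fell with a call in old AThi HSCs, and 9 rose and 2 fell in old ATlo HSCs. For comparison, the share of all peaks with a called rise was 7.42% and 6.75%, and with a called fall 2.69% and 2.49%. Of 131 HSC list peaks, 16 rose and 1 fell in old AThi HSCs. In old ATlo HSCs 10 rose and 2 fell. Of 41 megakaryocyte peaks, 7 rose in old AThi and 5 in old ATlo HSCs, and 0 fell. Of 88 stromal peaks, 3 rose and 3 fell in each comparison. The remaining lists had no called rise. Called rises were thus not particular to the endothelial list. Stromal promoters were found for 9 of 10 genes, not for Adipoq, and summed to 1047 in old AThi HSCs and 964 in old ATlo HSCs, against 901 in young HSCs, with Cxcl12 the 1 promoter called higher in each comparison. Without Cxcl12 the other 8 stromal promoters summed to 857 in old AThi HSCs and 809 in old ATlo HSCs, against 822 in young HSCs. Megakaryocyte promoters summed to 1251 and 1162 in old AThi and old ATlo HSCs, against 1140 in young HSCs, with Gp1bb the 1 called higher in each. Without Gp1bb the other 6 summed to 1151 and 1066 in old AThi and old ATlo HSCs, against 1090 in young HSCs. Without Cldn5 and Vwf the other 6 endothelial promoters summed to 413 and 391 in old AThi and old ATlo HSCs, against 389 in young HSCs. Without Fgd5, Kit and Mecom the other 7 HSC promoters summed to 798 and 764 in old AThi and old ATlo HSCs, against 849 in young HSCs. These sums without called promoters were added after the values were seen and carry no error. Leaving out promoters called higher in these same data lowers the old sums relative to young by construction. Leaving out those called lower, as Kit and Mecom were, raises them. These sums therefore test nothing. Some of these markers, Vwf and Tek among them, are also active in HSCs, and Kdr is in the partner list. Their part in the changes at Cavin2 and Ehd3 was not tested.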

How the data were processed

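ATAC-seq was made from old AThi (n = 3), old ATlo (n = 3) and young HSCs (n = 5). Per the submitters' processing notes, the tools were BWA, ChIPseeker, cutadapt, DESeq2, featureCounts, MACS2 and Trim Galore. Their versions and settings, the transposase shift, duplicate removal and peak merging are not given in the sources used here. As deposited, the mean level is a normalised count, treated as a signal. The authors' log2 changes, their SEs, Wald score and p-values were used as deposited. The tables hold 0 columns per library, so no model was refitted, in place of the count test first planned, and depth per library is unknown. Coordinates follow the tables, taken as mm39, since both GRCm38 and mm39 are named and none of the 9 genes ends where RefSeq GRCm38.p6 has it. RefSeq was used for names (20791 of 20810 identifiers) and for sequences.

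Levels per group solve the deposited mean over 11 libraries and both changes against young HSCs. The 3 SEs imply dispersions with medians of 0.0205, 0.0189 and 0.0200 for AThi, ATlo and young HSCs (16380 peaks with a mean level of at least 100), nearly equal, as a fit with 1 term per group and no pair term gives. The error bars thus rest on a spread shared by all groups. Intervals are 1.96 SE on each side. Named peaks were each gene's strongest promoter peak, every called peak and, without a call, the peak of smallest p, and for partners the 8 genes of smallest p. Genes, lists and tests were chosen with earlier results of these data known. Calculations used Python 3.11.15, pandas 2.3.3 and scipy 1.17.1 and were tested on simulated data.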

Additional observations from a re-analysis of the deposited data

How the results depend on the processing

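Counts of called peaks of the 9 genes were recomputed with other thresholds, with adjustment over all peaks, with a mean level of at least 10, with 2 other scalings, within 100 kb of the start and without peaks inside another gene. Counts higher than young ran from 9 to 16 in old AThi HSCs (13 as deposited) and from 7 to 15 in old ATlo HSCs (11 as deposited). The lowest came at an adjusted p under 0.01 and the highest with the strongest promoters centred. The share of all peaks called higher in these settings was 5.04% and 13.1% in old AThi HSCs, and 4.33% and 16.5% in old ATlo HSCs. Without peaks inside another gene, the peaks counted fell from 50 to 41. The 2 peaks lower in old AThi HSCs became 0 at an adjusted p under 0.01 and 1 with the strongest promoters centred. In these settings 0.915% and 0.879% of all peaks were called lower. No setting gave a call between old AThi and old ATlo HSCs. Signs turned only at values near 0. With the strongest promoters centred these were, in old AThi HSCs, the promoters of Cav1 (0.18), Cav2 (0.12), Cavin1 (0.20) and Ehd2 (0.11), and in old ATlo HSCs those of Cav1 (0.29), Cav2 (0.27), Cavin1 (0.15) and Cavin3 (0.30). Between AThi and ATlo the Cavin2 peak 22.7 kb upstream (-0.078) and the Ehd4 promoter (-0.040) turned. With all peaks centred, Cav1 (0.0091) and Cavin1 (0.028) turned in old AThi HSCs, and Cav1 (0.022), Cav2 (0.0018) and Cavin3 (0.027) in old ATlo HSCs. Besides these, 4 named values became called and 1 lost its call with the strongest promoters centred. In old AThi HSCs the newly called were the Cav2 peak 15.7 kb upstream (1.18) and the Cavin2 peak 43.3 kb upstream (1.54). In old ATlo HSCs they were the Cavin1 peak 7.62 kb downstream (0.93) and the Ehd3 peak 48.3 kb downstream (2.47). The intron 2 peak of Ehd4 lost its call in old AThi HSCs. Among peaks outside the named set, an Ehd4 peak in intron 3, 32.1 kb downstream, became called higher in old AThi HSCs. In old ATlo HSCs the Cav1 peak 55.7 kb downstream and the Ehd3 peak 7.7 kb upstream did so. Equal weights for the groups moved derived levels by factors of 0.860 to 1.11. No paired analysis was possible because the tables hold no values per library, and leaving out a library, other size factors and other count filters were not run for the same reason.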
